A study of Homo sapiens with 8 samples.

Results

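The cytosolic ribosomal protein genes code for the proteins of the ribosome that translates nuclear mRNAs, and their mRNAs were read in 8 RNA-seq samples of human embryonic stem cells (hESCs). The members were chosen by name: protein-coding genes called RPL or RPS followed by a number, with at most one suffix letter A, X or L, plus RPLP0, RPLP1, RPLP2 and RPSA, and without kinase genes, Y-linked copies and pseudogenes. This gave 81 of the 60675 genes of the series, of which 31 belong to the small (40S) subunit, 43 to the large (60S) subunit and 3 to the stalk, and 4 are paralogs with an L suffix (RPL3L, RPL10L, RPL39L and RPS27L). FAU, which codes for a ribosomal protein fused to a ubiquitin-like protein, falls outside the naming rule and is described with the related genes.

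All samples came from one hESC line, H9 (WA09), grown without feeder cells in mTeSR1 medium on Matrigel and passaged with dispase, with no treatment. P1 hESCs were at passage 40s, P2 at 100s, P3 at 200s and P4 at 300s, with 2 samples per line. In the study, the late P3 and P4 hESCs carry a survival trait of culture adaptation that the early P1 and P2 hESCs lack, so that the question here is whether the mRNAs of the ribosome differ between lines with and without this trait. The 4 lines are stages of a single culture history, so passage and any change that one late culture picked up cannot be told apart. The study describes a copy number gain at a locus on the long arm of chromosome 20 in P3 and P4 hESCs. Nothing in the labels says that the replicates were separate cultures, so p-values measure only the spread between these samples, which may be technical.

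Almost every ribosomal protein is present as a single copy per ribosome. The stalk is the exception, where RPLP0 anchors dimers of RPLP1 and RPLP2 that recruit elongation factors. Most of their mRNAs begin with a C followed by a run of pyrimidines, the 5′ terminal oligopyrimidine (TOP) motif, through which LARP1 and mTORC1 set their translation together. When ribosome assembly is disturbed, free RPL5 and RPL11 bound to 5S rRNA hold back MDM2 and so raise p53, which is a known link between these genes and the stress response of stem cells.

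The start of the mRNA is what these genes share outside their names. RefSeq transcription starts (GRCh38.p14) were matched for 64 of the 81 members. Of these, 46 (71.9%) had a C at the start followed by an unbroken run of pyrimidines of at least 5 bases in all. The share was 5.14% among the 27305 genes in the same table. A gene with several starts was counted if any of them had the run, among members and all genes alike. The motifs below were counted in the same way. The windows below hold 15 bases before and 15 bases from the annotated start on the transcribed strand, 5′ to 3′. Capitals mark the run that begins with C at the start. Where a gene had several starts, a start with the run was preferred, and then the longest pyrimidine run. The first 5 were chosen for the highest level (RPS27), the longest run (RPL39), the stalk (RPLP0), the p53 link (RPL11) and a member described in detail (RPS14), while the last 4 have no such run and are members described in detail (RPS4X, RPS28 and RPS27L) or at the low end of the levels (RPS26).
RPS27: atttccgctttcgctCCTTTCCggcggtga
RPL39: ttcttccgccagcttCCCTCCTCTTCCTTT
RPLP0: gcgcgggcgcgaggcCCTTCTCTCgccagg
RPL11: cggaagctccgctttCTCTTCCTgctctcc
RPS14: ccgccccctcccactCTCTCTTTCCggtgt
RPS4X: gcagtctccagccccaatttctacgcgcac
RPS28: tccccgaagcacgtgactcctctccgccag
RPS26: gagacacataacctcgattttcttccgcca
RPS27L: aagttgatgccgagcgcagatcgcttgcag

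These windows lie at chr1:153990747-153990776 (+) for RPS27, chrX:119791616-119791645 (-) for RPL39, chr12:120201097-120201126 (-) for RPLP0, chr1:23691791-23691820 (+) for RPL11 and chr5:150449725-150449754 (-) for RPS14. The windows without the run lie at chrX:72277234-72277263 (-) for RPS4X, chr19:8321481-8321510 (+) for RPS28, chr12:56041903-56041932 (+) for RPS26 and chr15:63157463-63157492 (-) for RPS27L. A window without the run says only that these letters are not at the annotated starts of the gene, since the starts used in these cells were not read. Neither of the 2 matched paralogs had the run. Of the matched genes of the mitochondrial ribosome, 6 of 68 had it (8.82%), and among the elongation factors and other mRNAs known to carry a TOP motif it was 10 of 11 (90.9%). The letters CCGGAAG, the core that ETS family factors bind, were found on either strand between 250 bases before and 50 bases after the start in 35.9% of the 64 members, compared with 12.2% of all genes, and TATAAA in 9.38%, compared with 13.99%. CCGGAAG was not particular to the members. It was in 42.6% of the 68 matched genes of the mitochondrial ribosome, and in 27.3% of the 11 elongation factors and other TOP mRNAs.

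The depth was 26874899 to 38095600 expected counts per sample, which puts the floor of 3 counts at 0.0787 to 0.112 CPM (counts per 1e6 counts) of the raw totals, a counting limit only. All 10 pluripotency markers were at 1 TPM (transcripts per 1e6 transcripts, a unit that corrects for length) or above in every sample, with a summed level of 3316 to 4955 TPM. None of 10 markers of early differentiation reached 1 TPM in every sample (summed 2.12 to 5.37 TPM). Of 6 fibroblast markers 3 did, namely COL1A1, COL1A2 and THY1, while COL3A1, DCN and LUM did not (summed 456 to 774 TPM over the 6). Which cells these transcripts came from was not tested. Mitochondrially encoded genes took 9.84% and 18.5% of the counts in the replicates of P1, 6.55% and 6.72% in P2, 18.4% and 7.53% in P3, and 17.2% and 5.89% in P4, so that 1 library of each of P1, P3 and P4 stood apart in this share.

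The mRNAs of the ribosome were among the most abundant of these cells. Of the 81 members, 65 were among the 100 genes with the highest mean TPM, and 76 were among the top 200. Without the paralogs, the mean TPM of the remaining 77 members ran from 435 to 6870 with a median of 2405, and 67 of them lay within 2-fold of that median. The same number, 67, had at least 1000 TPM in every sample. The median was 2405 TPM for the small subunit and 2423 TPM for the large subunit.

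**Figure D1:**
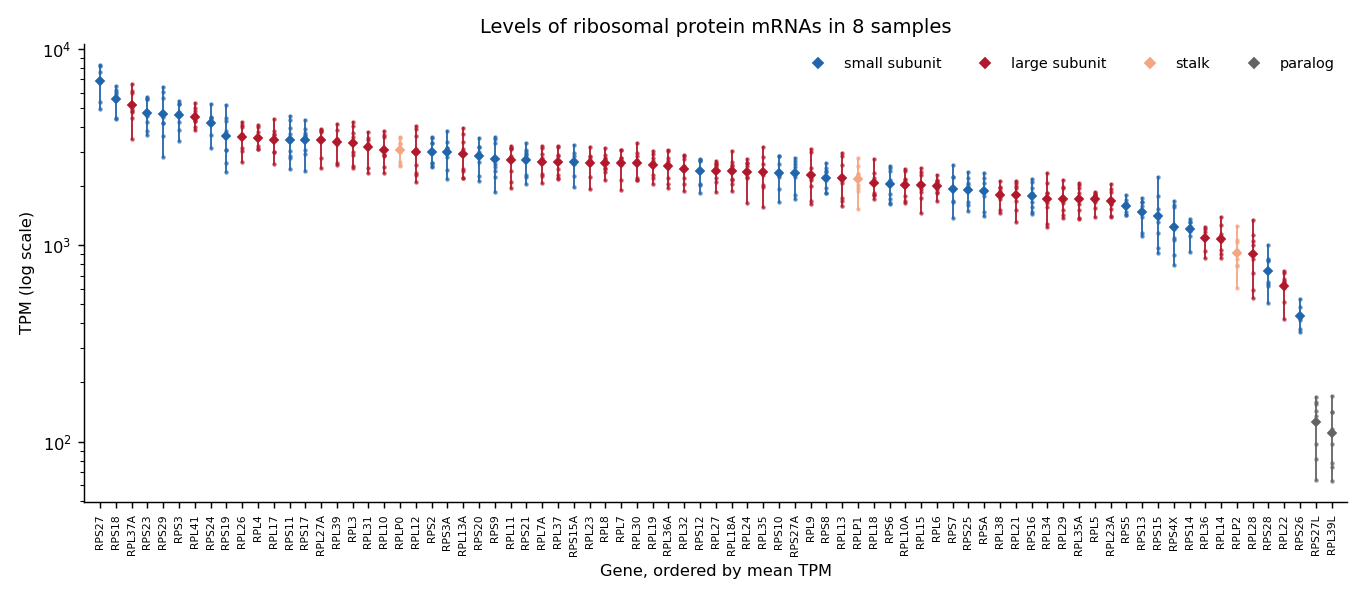
TPM on a log axis for the 79 members with a mean of at least 1 TPM, ordered by mean (diamond), with the 8 samples as dots and their range as a line, coloured by subunit. The 77 members outside the paralogs spread from 435 to 6870 TPM in mean with ranges that overlap between neighbours, and RPS27L and RPL39L stand below them.

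RPS27, a zinc-binding protein of the small subunit, had the highest level, with 6821 and 4969 TPM in P1, 8230 and 7604 TPM in P2, 6812 and 6854 TPM in P3, and 5352 and 8318 TPM in P4. It ranked 11 among all genes. Next came RPS18 with a mean of 5588 TPM, RPL37A with 5161 TPM, RPS23, a protein of the decoding centre, with 4744 TPM, and RPS29 with 4689 TPM. At the other end RPS26, a protein of the mRNA exit site, had 442 and 361 TPM in P1, 428 and 485 TPM in P2, 419 and 533 TPM in P3, and 374 and 440 TPM in P4. The samples of the 4 lines overlapped for RPS26 as they did for RPS27. Neighbours in the order could rarely be told apart, since only 3 of the 76 neighbouring pairs kept the same order in every sample.

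Among the stalk mRNAs, RPLP0 had a mean level of 3055 TPM, RPLP1 2167 TPM and RPLP2 916 TPM, and RPLP2 was the lowest of the 3 in every sample. RPL5 and RPL11, the partners of 5S rRNA, had mean levels of 1721 and 2735 TPM. RPSA, a small subunit protein also known as the laminin receptor, had 1891 TPM, and RPS27A, which is made as a fusion with ubiquitin, had 2334 TPM. Of the X-linked members, RPL39 in the exit tunnel had 3355 TPM, RPL10, which joins the large subunit late in its assembly, 3061 TPM, RPL36A 2531 TPM and RPS4X 1240 TPM.

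The paralogs were far below the other members. RPS27L had a mean of 126 TPM and RPL39L, known from testis and from embryonic stem cells, 110 TPM. RPL3L, the form of heart and skeletal muscle, had 0.07 to 0.71 TPM from 4 to 33 counts per sample. RPL10L, a testis gene, had 1 count in P1 replicate 2 and in P4 replicate 1 and 0 in the other 6 samples, which allows up to 3 counts there.

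Processed pseudogenes with a member's symbol followed by P took little of these counts. The 1585 such genes held 0.974% to 1.12% of the counts of the members and pseudogenes together. The share was highest for RPL23A, where pseudogenes took 9.70% to 13.2%, and for RPS2 with 9.44% to 10.6%, and the counts of these members are the least certain. Which copy a read came from was not tested.

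As a whole, the family took 8.18% and 6.63% of all counts in P1, 9.15% and 9.32% in P2, 7.59% and 7.48% in P3, and 6.98% and 8.73% in P4. This gives 7.41% ± 1.09 (SD, n = 2) for P1, 9.24% ± 0.123 for P2, 7.53% ± 0.0778 for P3 and 7.85% ± 1.24 for P4. Both P2 samples were above the other 6, and the samples of P1, P3 and P4 overlapped. The lower share of P1 replicate 2 and P4 replicate 1 went with a mitochondrial share of 18.5% and 17.2%. P3 replicate 1 had a mitochondrial share of 18.4%, but its family share of 7.59% was not below the 7.48% of P3 replicate 2. Without the mitochondrially encoded genes in the total, the shares were 9.07% and 8.14% in P1, 9.79% and 9.996% in P2, 9.30% and 8.09% in P3, and 8.43% and 9.28% in P4. The P2 samples were again the highest. The replicates of P3, which were alike before, now held the lowest share of all samples and the highest after P2. On the TPM scale the family took 15.9% to 23.5% of the total. In bulk samples a change in the mRNA per cell and a change in the make-up of the culture cannot be told apart.

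**Figure D2:**
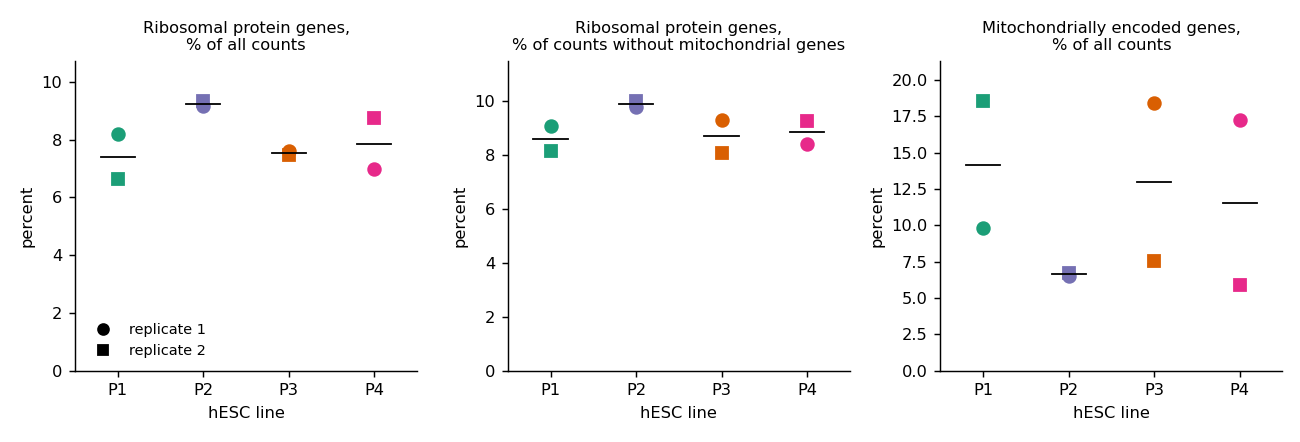
Percent of counts per sample (circle for replicate 1, square for replicate 2, line for the mean of a line) in ribosomal protein genes, the same with mitochondrially encoded genes left out of the total, and in mitochondrially encoded genes. P2 holds the highest shares of ribosomal protein genes with 9.15% and 9.32%, and P1, P3 and P4 each have 1 sample with over 17% mitochondrial counts.

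The ratio of small subunit to large subunit counts (stalk included) was 0.674 and 0.660 in P1, 0.675 and 0.649 in P2, 0.673 and 0.669 in P3, and 0.628 and 0.646 in P4. Both P4 samples were the lowest. The gap between P4 replicate 2 and P2 replicate 2 was smaller than the difference between the replicates of either line.

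No ribosomal protein gene passed the test between the late and the early lines. The 4 samples of P3 and P4 hESCs were compared with the 4 of P1 and P2, and 80 members could be tested, RPL10L being removed by the filter on low counts. By the quasi-likelihood test of edgeR, 0 of 80 had a p under 0.05 after Benjamini-Hochberg adjustment, compared with 7.54% of the 19499 genes tested. With the thresholds of the study (adjusted p under 0.01 and a log2 fold change beyond 1 in either direction), it was also 0 of 80 members, compared with 2.2% of all genes. At an unadjusted p under 0.05 there were 2 members (2.5%, compared with 25.5% of all genes), and DESeq2 called 0. Limma on log2(TPM + 1) called 0 members here and in each comparison that follows. The median log2 fold change of the members was -0.01, and that of all genes 0.01. It lay within -0.12 and 0.04 under all alternatives, on either side of 0. Of the estimates, 37 were above 0 and 43 below, and all but RPL3L, whose counts are few, lay between -0.40 and 0.32.

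The estimates were more precise than those of most genes. The median standard error was 0.15 on the log2 scale, compared with 0.24 for all genes, and the 95% interval of the fold change lay within 2-fold in either direction for 79 of 80 members, RPL3L being the exception, compared with 57.7% of all genes. For 70 members it lay within 1.5-fold. These intervals hold for single genes and were not widened for the number of genes.

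Between single lines, the members were again not called by edgeR. In P2 compared with P1 hESCs (2 samples each, with the spread estimated over all 8), edgeR called 0 of 80 members by the adjusted p, compared with 0.00513% of all genes, and 0 by the thresholds of the study, compared with 0.0%. There were 0 members at an unadjusted p under 0.05, compared with 9.14% of all genes, and DESeq2 called 0. The estimates were above 0 for 75 of the 80 members, with a median of 0.18 beside -0.01 for all genes. The median was 0.28 without P1 replicate 1 and 0.10 without P1 replicate 2. It was 0.01 when counts were scaled to the summed members, which moved all genes to -0.19. The exceptions were 5 members led by RPS21, with a log2 fold change of -0.31. These estimates are not independent of each other, as all members were read in the same 4 libraries.

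In P3 compared with P1 hESCs, edgeR called 0 of 80 members, compared with 12.5% of all genes, and 0 by the thresholds of the study, compared with 3.93%. At an unadjusted p under 0.05 there were 3 members (RPL28, RPS14 and RPS28), and DESeq2 called 0. These were 3.75% of members, compared with 29.5% of all genes. The median was 0.10, with 59 estimates above 0, and it was -0.07 without P3 replicate 1 and 0.28 without P3 replicate 2, so that the direction of the family rested on P3 replicate 1.

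In P4 compared with P1 hESCs, edgeR called 0 of 80 members, compared with 5.94% of all genes, and 0 by the thresholds of the study, compared with 2.11%. RPS4X alone had an unadjusted p under 0.05 (1.25% of members, compared with 21.5% of all genes), and DESeq2 called 0. The median was 0.04, and -0.03 without P1 replicate 2, 0.12 without P1 replicate 1 and 0.09 without P4 replicate 1. In P4 compared with P3 hESCs, edgeR called 0 of 80, compared with 3.31% of all genes, and 0 by the thresholds of the study, compared with 0.815%. Here 4 members had an unadjusted p under 0.05 (RPS27L, RPL28, RPL39L and RPS15), and DESeq2 called 1, RPS27L. The 4 were 5.0% of members, compared with 19.2% of all genes. The median was -0.09, with 62 estimates below 0, and it was -0.24 without P3 replicate 2 and turned to 0.06 without P3 replicate 1 and to 0.04 on the log2(TPM + 1) scale. On that scale the median of all genes itself moved to 0.12 for P4 compared with P3 and to 0.18 for P2 compared with P1, where the members were at 0.34.

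A test for any difference among the 4 lines called 0 of 80 members by edgeR, compared with 13.1% of all genes. At an unadjusted p under 0.05 were 3 members, RPS27L, RPS4X and RPL28 (3.75%, compared with 31.5% of all genes). DESeq2 called 2 of 80 by its likelihood ratio test, RPS27L and RPS4X. The share of all genes called by DESeq2 is not given here or for P4 compared with P3. These DESeq2 counts therefore have no background to be read against.

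**Figure D3:**
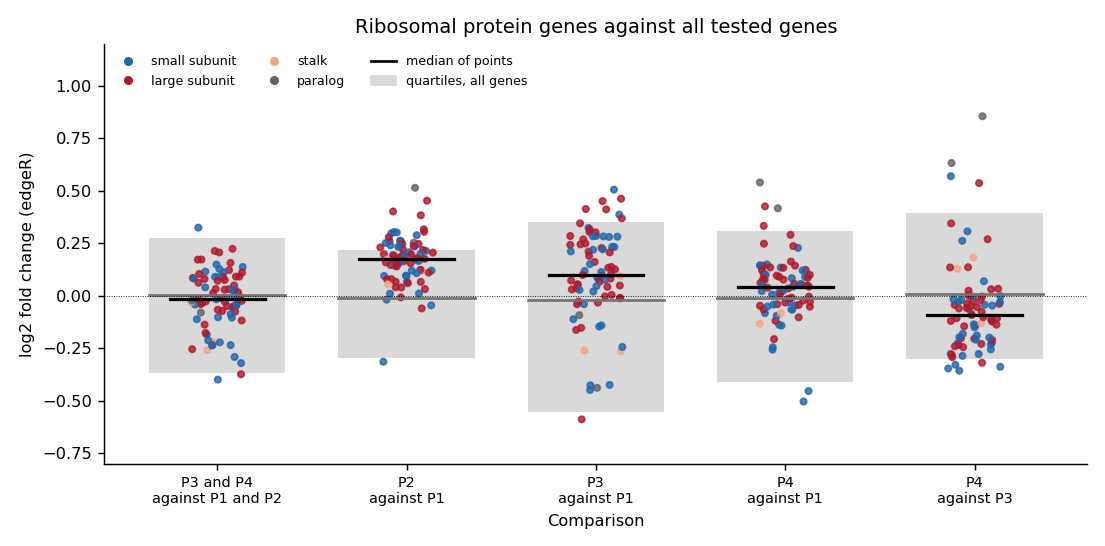
Log2 fold change of 79 ribosomal protein genes (RPL3L left out) in 5 comparisons, coloured by role, with the median of the points as a black line and the quartiles and median of all 19499 tested genes as a grey band and line. The points lie mostly inside or near the grey band, with RPS27L at 0.86 in P4 compared with P3 as the highest point.

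Across the 8 samples the members varied less than other genes with a mean above 100 TPM, a set that was not matched to the members in level. The ratio of the highest to the lowest CPM, normalized by the trimmed mean of M values (TMM), had a median of 1.44 over the 77 members outside the paralogs and ran from 1.13 to 2.31. It was under 2 for 75 of 77 members (97.4%), compared with 69.8% of 1063 other genes with a mean above 100 TPM, whose median was 1.69. RPL5 had the smallest ratio, with 1178 to 1330 CPM. The largest were RPS15, with 242 to 560 CPM, and RPL28, with 237 to 521 CPM, both chosen after their values were seen.

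In TMM-normalized CPM, the members moved together between replicates of 1 line, by as much as they did between lines. In P3, 76 of 77 members were higher in replicate 1 than in replicate 2, with a median difference of 0.34 on the log2 CPM scale, while the median over all tested genes was 0.01. RPL22 was the only exception, with 598 and 636 CPM. The difference was 0.36 for the 31 small subunit members and 0.32 for the 46 of the large subunit and stalk. It depends on the scaling, since the TMM factors of P3 replicates 1 and 2 were 0.831 and 1.04. In these 2 libraries the family took 7.59% and 7.48% of all counts, and 9.30% and 8.09% without mitochondrial genes. On the TPM scale the order was reversed, with 17.6% and 19.6%, but not without mitochondrial genes, with 25.9% and 23.4%. In P1, 67 of 77 members were higher in replicate 1, with a median of 0.15. In P2 and P4 the medians were -0.02 and -0.06, with 33 and 27 of 77 members higher in replicate 1. The median of the family relative to its mean over all samples was thus highest in P3 replicate 1 (0.20) and lowest in P1 replicate 2 (-0.15). The mitochondrial shares of these libraries were 18.4% and 18.5%. The part of the mitochondrial share in these differences was not tested.

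In TMM-normalized CPM, other mRNAs with a TOP motif were also higher in P3 replicate 1. Of 17 elongation factors and related genes, 16 were higher in P3 replicate 1, with a median of 0.30, and of 7 ribosomal proteins and paralogs outside the naming rule 5 were, with a median of 0.27. Of the mitochondrial ribosomal protein genes 62 of 77 were higher there (median 0.21). By contrast 23 of 39 ribosome biogenesis factors were lower in that library (median -0.05), as were 11 of 12 snoRNA host genes (median -0.30). In the other lines the lists stood otherwise. In P1, 13 of 17 elongation factors and related genes and 32 of 39 biogenesis factors were higher in replicate 1, beside 67 of 77 members. In P4, 12 of the 17 and 35 of the 39 were higher in replicate 1, beside 27 of 77 members. Each is a description of 2 libraries, with no test.

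**Figure D4:**
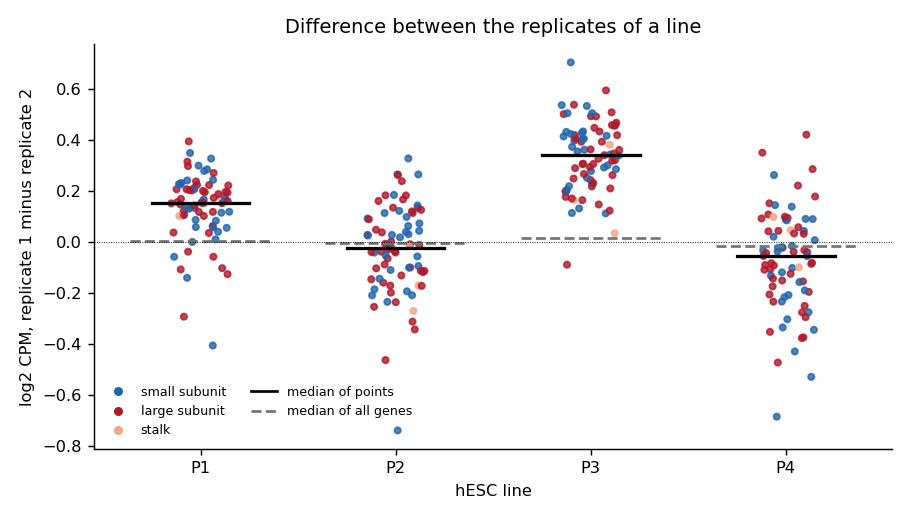
Difference in log2 CPM between replicate 1 and replicate 2 of each line for 77 ribosomal protein genes, with their median as a black line and the median of all tested genes as a dashed line. In P3, 76 of 77 points lie above 0 with a median of 0.34, and in P2 and P4 the points lie on both sides of 0.

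The base composition of the mRNA moved with some of these differences. The members' median transcript GC content ran from 42.3% (RPL31) to 62.8% (RPL36). Across the 77 members, which share libraries and are not independent, it correlated with the difference between the P2 replicates with Pearson's r = -0.74 (-0.52 over 19357 genes), with P4 compared with P3 with r = 0.60 (0.22 over all genes), with P3 compared with P1 with r = -0.49 (-0.14), and with P3 and P4 compared with P1 and P2 with r = -0.38 (-0.09). With the difference between the P3 replicates, in which nearly the whole family took part, it correlated with r = 0.36 (0.21), and between the P1 replicates with r = -0.11 (-0.27). For P2 compared with P1, P4 compared with P1 and the P4 replicates, r was 0.09, 0.03 and 0.07 over the members (0.10, 0.05 and -0.07). RPS15, with 61.9% GC, was lower in P2 replicate 1 by 0.74 on the log2 scale, the largest difference between P2 replicates among the members. The part of base composition in these differences was not tested. Transcript length, with a median of 671 bases for the members and 1089 for all genes, correlated with the difference between the P3 replicates with Spearman's rho = -0.05 over the members and over all genes, and over the members with rho = -0.24 for the P1, -0.20 for the P2 and 0.01 for the P4 replicates.

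The members with the smallest p values are given next with every sample. They did not pass the adjusted test, and RPS28, RPS14, RPL28 and RPS15 were chosen after their values were seen. RPS4X (chrX:72255679-72277300, - strand, GRCh38) codes for a small subunit protein with a Y-linked counterpart and is known to escape X inactivation. It had 1457 and 1184 CPM in P1, 1433 and 1530 CPM in P2, 1239 and 1147 CPM in P3, and 898 and 964 CPM in P4. Both P4 samples were below all others, and the P3 samples overlapped those of P1. The log2 fold change was -0.40 (SE 0.15, edgeR adjusted p = 0.127) for P3 and P4 compared with P1 and P2 and -0.50 (SE 0.20, adjusted p = 0.162) for P4 compared with P1, and the first kept its direction in all 20 alternatives, with adjusted p from 0.0661 to 0.272.

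RPS28 (chr19:8321158-8323340, + strand), a small protein of the 40S head, had 368 and 336 CPM in P1, 342 and 395 CPM in P2, 276 and 240 CPM in P3, and 328 and 310 CPM in P4. Every P3 and P4 sample was below every P1 and P2 sample. The log2 fold change was -0.32 (SE 0.14, edgeR adjusted p = 0.177), with adjusted p from 0.114 to 0.493 under the alternatives. RPLP1 likewise did not overlap, with 1213, 1110, 1135 and 1278 CPM in the P1 and P2 samples and 1025, 914, 1076 and 1042 CPM in the P3 and P4 samples (log2 fold change -0.22, SE 0.13, adjusted p = 0.288). RPLP2, its partner in the stalk, had 473, 417, 455 and 549 CPM in P1 and P2 and 375, 366, 434 and 406 CPM in P3 and P4, and the groups overlapped.

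On the CPM scale, 2 of 80 members were thus lower without overlap in the late lines, compared with 9.19% of all genes. Higher without overlap was 1 member, RPS14, compared with 8.4% of all genes. In TPM the early and late samples overlapped for RPS28, RPLP1 and RPS14. RPS14 (chr5:150442635-150449756, - strand), a 40S platform protein whose loss marks the anaemia of 5q deletion, had 728 and 662 CPM in P1, 754 and 732 CPM in P2, 1158 and 816 CPM in P3, and 798 and 830 CPM in P4. In CPM, P3 replicate 1 was far above the other 3 late samples. In TPM it was not, with 1315 and 1308 TPM in P3 and 1120 and 1357 TPM in P4. The P1 and P2 samples had 925 to 1249 TPM. For P3 compared with P1 the log2 fold change was 0.51 (SE 0.21, edgeR adjusted p = 0.133), and it was 0.24 (adjusted p = 0.539) without P3 replicate 1 and 0.74 (adjusted p = 0.0439) without P3 replicate 2. Under all alternatives the adjusted p ran from 0.0439 to 0.591.

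RPL28 (chr19:55385345-55403250, + strand), a large subunit protein, had 409 and 399 CPM in P1, 378 and 521 CPM in P2, 301 and 237 CPM in P3, and 353 and 427 CPM in P4. The P3 samples were the lowest. The log2 fold change was -0.59 (SE 0.22, edgeR adjusted p = 0.0985) for P3 compared with P1 and 0.54 (SE 0.22, adjusted p = 0.209) for P4 compared with P3. RPS15, a protein needed for export of the small subunit, had 402 and 356 CPM in P1, 335 and 560 CPM in P2, 323 and 242 CPM in P3, and 416 and 422 CPM in P4, with a log2 fold change of 0.57 (SE 0.25, adjusted p = 0.236) for P4 compared with P3. The replicates of P2 differed by more for RPS15 than the lines P3 and P4 did.

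**Figure D5:**
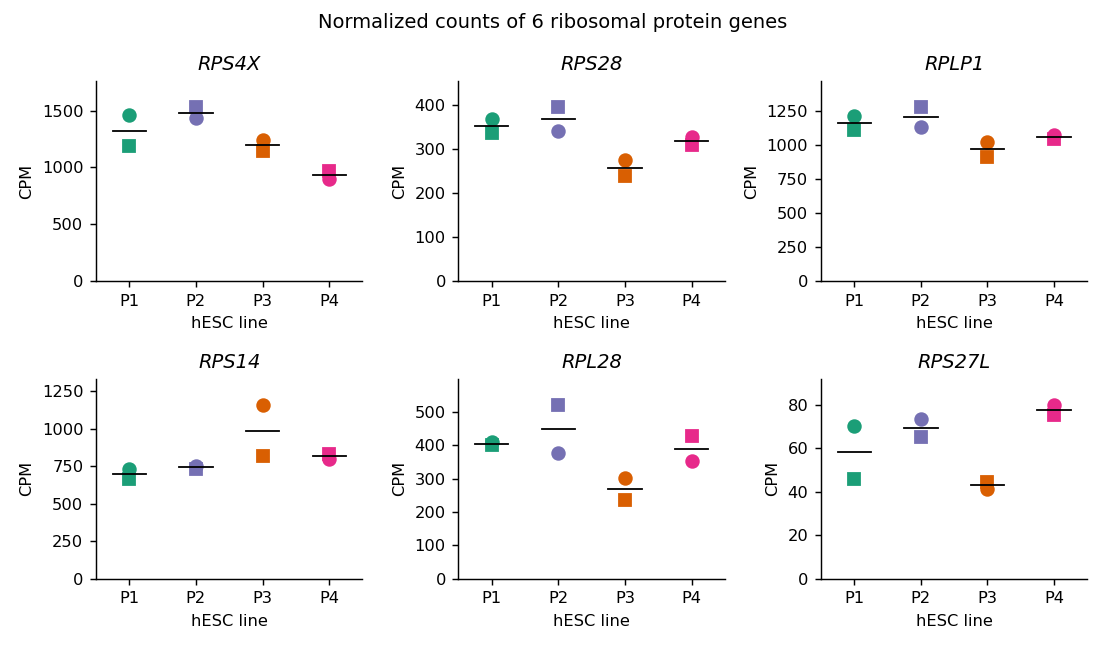
TMM-normalized CPM per sample (circle for replicate 1, square for replicate 2) with the mean of each line as a bar for RPS4X, RPS28, RPLP1, RPS14, RPL28 and RPS27L. RPS4X is lowest in P4 with 898 and 964 CPM, RPS14 is highest in P3 replicate 1 with 1158 CPM, and RPS27L is lower in P3 (41.3 and 44.5 CPM) than in P4 (80.0 and 75.4 CPM).

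The other members of the rule were without a call and overlapped between early and late lines. RPL5 and RPL11 had 1178 to 1330 CPM and 840 to 1188 CPM over the 8 samples, and RPL11 was lowest in P1 replicate 2. RPLP0 had 2240 to 2917 CPM, RPSA 1262 to 1867 CPM and RPS27A 912 to 1400 CPM, each with the highest value in P3 replicate 1. The X-linked RPL10, RPL36A and RPL39 had 1106 to 1530, 479 to 591 and 500 to 773 CPM. For P3 and P4 compared with P1 and P2, the 4 X-linked members had a median log2 fold change of -0.02, compared with 0.21 for 699 tested genes of the X chromosome. The 12 members on chromosome 19 had -0.22, compared with 0.07 for 1426 genes there. RPS21 (chr20:62387116-62388520, + strand), the only member on chromosome 20, had 366 and 485 CPM in P1, 344 and 340 CPM in P2, 375 and 258 CPM in P3, and 311 and 310 CPM in P4, and the early and late samples overlapped. RPS21 is not among the genes that the text of the study names at the locus of the copy number gain (ID1, BCL2L1, HM13 and TPX2). These values are not given as a description of the gain.

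The paralog RPS27L (chr15:63125872-63158021, - strand) gave the smallest p of all members. It is a known target of p53, unlike its near twin RPS27. RPS27L had 70.4 and 45.9 CPM in P1, 73.6 and 65.1 CPM in P2, 41.3 and 44.5 CPM in P3, and 80.0 and 75.4 CPM in P4. Both P4 samples were above both P3 samples by a wide margin, and P1 replicate 2 was close to the P3 samples. For P4 compared with P3 the log2 fold change was 0.86 (95% interval 0.38 to 1.33, edgeR adjusted p = 0.0533). This missed the threshold of 0.05, which was passed in 5 of 20 alternatives: DESeq2 (adjusted p = 0.0101), edgeR without the filter on low counts (adjusted p = 0.0088) or with the mitochondrial share as covariate (adjusted p = 0.0405), and edgeR without P1 replicate 1 (adjusted p = 0.0481) or P1 replicate 2 (adjusted p = 0.0413). Over the 20 the adjusted p ran from 0.0088 to 0.542, and the log2 fold change from 0.80 to 0.94. RPS27, its parent, had an estimate of opposite sign between these lines, with 1176 and 829 CPM in P3 and 837 and 909 CPM in P4, but this sign rests on P3 replicate 1, since P3 replicate 2 was below both P4 samples. RPL39L had 51.3 and 32.8 CPM in P1, 58.9 and 61.3 CPM in P2, 47.4 and 31.5 CPM in P3, and 51.5 and 70.9 CPM in P4, where P4 replicate 1 lay close to P3 replicate 1 (log2 fold change 0.63, SE 0.27, adjusted p = 0.217).

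Genes of a p53 target list were called between the late lines. The list was chosen with earlier results of these data known. Of 15 listed genes, 12 rose and 0 fell in P4 compared with P3 hESCs by edgeR (3.31% of all genes were called), with a median log2 fold change of 1.27. In P3 compared with P1, 6 fell and 0 rose (12.5% of all genes called), and in P4 compared with P1, 5 rose and 0 fell (5.94%). Limma on log2(TPM + 1) called 4, 2 and 1 of them in these comparisons. RPS27L, a member, was not in this list, and the part of p53 in its values was not tested. CDKN1A, the cell cycle inhibitor p21, had 11.2 and 15.8 CPM in P1, 18.2 and 21.0 CPM in P2, 8.44 and 3.85 CPM in P3, and 57.0 and 86.0 CPM in P4. Its log2 fold change in P4 compared with P3 was 3.54 (SE 0.36, adjusted p = 2.4e-04). MDM2, the p53 ubiquitin ligase that RPL5 and RPL11 bind, rose by 0.97 (SE 0.23, adjusted p = 0.0394), and was named after its values were seen. The count in P4 compared with P3 was 6 without P3 replicate 1 or without P4 replicate 2, and in P4 compared with P1 it was 1 or 2 without any of P1 replicate 1, P1 replicate 2, P2 replicate 1, P2 replicate 2 and P4 replicate 2. Over P3 and P4 together compared with P1 and P2, 0 of the 15 passed by edgeR, DESeq2 or limma and 0 had an unadjusted p under 0.05, including RRM2B (-0.52), BAX (-0.51) and CDKN1A (1.23).

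In the mitochondrial ribosome, which translates the mRNAs of the mitochondrial genome, some genes did pass. Whether the family differs from the cytosolic one was not tested. Of 77 genes for its proteins, 7 rose and 0 fell in P3 and P4 compared with P1 and P2 (7.54% of all genes were called), and all 77 estimates were above 0, with a median of 0.33. MRPL9 rose from 32.1 to 41.2 CPM in the early samples to 52.5 to 60.8 CPM in the late samples (log2 fold change 0.59, SE 0.13, edgeR adjusted p = 0.0213), MRPL2 rose by 0.57 (SE 0.13, adjusted p = 0.0262) and MRPL46 by 0.60 (SE 0.15, adjusted p = 0.0314), and for each of the 3 the groups did not overlap. These 3 were named for the smallest p in this same comparison, and 8.4% of all genes were higher without overlap in the late samples. In P3 compared with P1, 20 rose and 0 fell (12.5% of all genes were called). Limma on log2(TPM + 1) called 0 in both comparisons. Both counts were unstable: the first fell to 0 without P1 replicate 1, P1 replicate 2, P2 replicate 1 or P3 replicate 1, to 1 without P4 replicate 1, 2 without P2 replicate 2 and 4 without P3 replicate 2, and rose to 18 without P4 replicate 2, and the second was 0 without P1 replicate 2, 1 without P3 replicate 1, 4 without either P2 replicate, 5 without P1 replicate 1, 13 without P3 replicate 2 and 19 without either P4 replicate.

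Genes that share the ribosome or its control with the members mostly did not pass. Of 7 other ribosomal proteins and paralogs, 0 passed in any comparison by edgeR, DESeq2 or limma, and 0 or 1 had an unadjusted p under 0.05 in each. For late compared with early lines, RPL26L1 was at a log2 fold change of 0.36 (adjusted p = 0.187), RPL36AL at 0.23 and FAU at 0.26. FAU had 281, 297, 295 and 286 CPM in the early samples and 455, 299, 316 and 313 CPM in the late samples, with P3 replicate 1 highest as for RPS14. Of 17 elongation factors and other mRNAs with a TOP motif, 0 passed in any comparison by edgeR or limma, while 0 or 1 had an unadjusted p under 0.05 and DESeq2 called 1 in P4 compared with P1. They had a median of -0.01 for late compared with early lines and the smallest p for EEF1D (-0.28), NACA (0.25) and TPT1 (0.31).

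Among the factors that build the ribosome, 0 of 39 biogenesis factors passed in any comparison by edgeR or limma, and DESeq2 called 0 or 1 in each. At an unadjusted p under 0.05 there were 7 for late compared with early lines, with 33 of 39 estimates above 0 and a median of 0.18 for late compared with early lines. SBDS, which releases eIF6 from the 60S subunit, was at 0.39 (adjusted p = 0.0886), RPF2, which loads 5S rRNA, at 0.41, and NOP56 at -0.64. Of 6 dedicated chaperones of ribosomal proteins, PDCD2, which guards uS5, rose by 0.50 (SE 0.13, adjusted p = 0.0373), and BCCIP (0.50) and GRWD1 (0.37) did not pass. BCCIP rose by 0.70 in P3 compared with P1 (SE 0.19, edgeR adjusted p = 0.0357). Of 15 RNA polymerase I genes 0 passed by edgeR, DESeq2 or limma (2 at an unadjusted p under 0.05), with POLR1F at 0.44, TAF1C at -0.52 and POLR1H at 0.35, and TAF1C fell in P3 compared with P1. Of 12 snoRNA host genes 0 passed by edgeR or limma and 1 by DESeq2 (2 at an unadjusted p under 0.05), with SNHG15 having the smallest adjusted p (0.0705), SNHG29 at 0.31 and SNHG1 at -0.58. In P4 compared with P3, 2 of the 12 rose, SNHG15 and SNHG32.

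Of 22 regulators around mTORC1, LARP1 and MYC, 1 rose and 1 fell in the late lines by edgeR, beside 7.54% of all genes called, and limma called 0. RHEB, the activator of mTORC1, rose by 0.54 (SE 0.14, edgeR adjusted p = 0.0356), with 70.9 to 90.2 CPM in the early and 110 to 134 CPM in the late samples. MYCL fell by 0.69 (SE 0.19, adjusted p = 0.0456). MYC, which drives transcription of ribosomal protein genes, was at -0.99 over the late lines (adjusted p = 0.0743). It had 147 and 105 CPM in P1, 145 and 153 CPM in P2, 54.6 and 30.9 CPM in P3, and 81.1 and 109 CPM in P4, and it fell by 1.56 in P3 compared with P1 (SE 0.28, adjusted p = 0.0042). No ribosomal protein gene passed in that comparison. Of the markers, 1 of 10 for pluripotency fell in the late lines, PODXL (-0.65, adjusted p = 0.0284), with L1TD1 at 0.43 and SALL4 at -0.33. Of 8 tested markers of early differentiation 0 passed by edgeR (DESeq2 called 1, and 3 had an unadjusted p under 0.05), with EOMES at -2.31, TBXT at -1.69 and FOXA2 at 2.15 at levels under 7 CPM, and of 3 tested fibroblast markers 0 passed by edgeR (DESeq2 and limma each called 1, and 2 had an unadjusted p under 0.05), with THY1 at 0.55, COL1A1 at -0.64 and COL1A2 at -0.23. In all, 11 of 231 tested genes of these lists passed for late compared with early lines, a smaller share than the 7.54% of all genes called, and 0 did without P1 replicate 1, P1 replicate 2 or P2 replicate 1, 1 without P3 replicate 1, 2 without P2 replicate 2 or P4 replicate 1, 5 without P3 replicate 2 and 29 without P4 replicate 2.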

How the data were processed

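RNA of 8 samples, 2 per line, was sequenced from stranded mRNA libraries (TruSeq). Per the labels and the submitters' processing notes, the authors used FastQC, Trim Galore, STAR 2.7.3a and RSEM 1.3.3 on GRCh38, and the annotation release is not given in the sources used here. The authors deposited, per sample and gene, an expected count, which is estimated by RSEM and not normalized, and a TPM value, which is scaled for length and library. Whether counting used the strand is not given in the sources used here, so a gene and its antisense partner may share reads.

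After rounding the expected counts, edgeR 4.0.16 was run in R 4.3.3 (TMM factors, filterByExpr by the 4 lines, quasi-likelihood test, Benjamini-Hochberg adjustment over 19499 genes). P3 and P4 were compared with P1 and P2 in 2 groups of 4 samples, and single lines in 4 groups of 2. Calls used an adjusted p under 0.05. Standard errors were derived from the fold change and its F statistic. CPM used TMM factors. Shares of counts used the raw totals, with depth as given above. Correlations and differences between replicates used log2(CPM + 0.5). The methods were tested on simulated data first. The study names DESeq2 and it was run (1.42.0) as an alternative, beside its size factors, no count filter, the replicate block, the 4-group model or only the samples compared, limma 3.58.1 on log2(TPM + 1) and log2(TPM + 0.1) with or without a TPM filter, counts summed with pseudogenes, the mitochondrial genes left out or their share as a covariate, and each replicate left out. Scaling to the summed ribosomal protein counts, and the alternatives for counts of p53 targets and mitochondrial ribosomal proteins, were added after the data had been seen.

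Gene symbols were found for 56558 identifiers, and positions and GC content came from GENCODE release 29 (GRCh38) and starts from RefSeq. Members and lists were chosen with earlier results of these data known. Members named with levels were the 5 highest and 5 lowest by mean TPM, the stalk proteins, RPSA, RPL5, RPL11, RPS27A, the X-linked members and the paralogs. Those named with fold changes were to be members with an adjusted p under 0.05, of which there were none, and up to 3 genes per related list had the smallest p for late compared with early lines. Genes named outside this rule are marked, and also include RPL23A, RPS2, RPL22, RPS21, RPL31, RPL36 and SNHG32, chosen after their values were seen. Python 3.11.15, pandas 2.3.3, scipy 1.17.1 and matplotlib 3.10.9 were used for the rest. Protein sequences were not used here.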

Additional observations from a re-analysis of the deposited data

Results flagged for a closer look

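RPS14 in the late lines had 1 sample apart from the others: P3 replicate 1 had 1158 CPM and the other 3 samples 798 to 830 CPM, and the gap to the nearest sample took 0.896 of the range of the 4 samples on the log2 scale. Of 54 groups of 4 samples checked this way among the named members and family shares, 1 stood out, where chance gives about 2.7. In CPM the same library was the highest or near highest for most members, and its mitochondrial share was 18.4%. In TPM, RPS14 had 1315 and 1308 in P3 and 1120 and 1357 in P4, so that P3 replicate 1 was not apart on that scale.

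Of 36 genes named from the related lists, 7 differed between P3 and P4 hESCs, compared with 3.31% of all genes. This was edgeR's quasi-likelihood test of the difference itself (P4 compared with P3, 2 samples against 2, Benjamini-Hochberg adjustment). The 36 had been chosen from these same data, for the smallest p of their list in late compared with early lines. BAX was at -1.15 in P3 and 0.13 in P4, each compared with P1, a difference of 1.28 (adjusted p = 0.00486). CDKN1A was at -1.14 and 2.41, a difference of 3.54 (adjusted p = 2.4e-04), and RRM2B at -0.96 and -0.01, a difference of 0.95 (adjusted p = 0.0467). MYC was at -1.56 and -0.40, a difference of 1.16 (adjusted p = 0.0397), and SNHG15 at -1.78 and -0.53, a difference of 1.25 (adjusted p = 0.0181). EOMES was at -3.25 and -0.56, a difference of 2.69 (adjusted p = 0.0247), and FOXA2 at 2.76 and -1.49, a difference of -4.25 (adjusted p = 7.8e-04), both at levels under 7 CPM.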

How the results depend on the processing

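The count of 0 called members held under all 21 alternatives for the late against the early lines, for P2 and for P4 against P1. For P3 against P1 it ranged from 0 to 1 when 1 sample was left out. For P4 against P3 it was 1 (RPS27L) with DESeq2, without the count filter and with the mitochondrial share as covariate, and 0 to 1 when 1 sample was left out. For any difference among lines it was 2 with DESeq2 and without the filter, and 0 to 1 when 1 sample was left out. Each line has a replicate 1 and 2, but the replicate differences of different lines correlated with r from -0.12 to 0.18 across genes, so the numbers were not taken as pairs, and with the replicate block 0 members were called in each comparison. The 11 genes of the related lists called for late against early lines became 29 with DESeq2, 7 with the replicate block, 35 with the 4-group model, 2 with limma on TPM under each of its 3 settings, and 0 to 29 with 1 sample left out. Of these, the 7 mitochondrial ribosomal proteins became 20, 4, 20, 0 and 0 to 18, and for P3 against P1 their 20 became 9 with only the 4 samples compared, 0 with limma, 1 when scaled to the summed members and 0 to 19 with 1 sample left out. The p53 targets called became, with limma on log2(TPM + 1), log2(TPM + 0.1) and without the TPM filter, 2, 3 and 1 for P3 against P1, 1, 1 and 0 for P4 against P1, and 4, 4 and 2 for P4 against P3, and with 1 sample left out 4 to 7, 1 to 6 and 6 to 12. Without mitochondrial genes in the total, the family's share became 8.61% of counts in P1, 9.89% in P2 and 8.69% in P3, and 24.7%, 26.8%, 24.7% and 24.5% of TPM in P1 to P4. The cause of these changes was not tested. With 2 samples per line, the 95% interval stayed within 1.5-fold for 29 to 59 of 80 members between single lines. A sample left out leaves a lone sample in its line that is assumed to vary like the others.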
